A study of Homo sapiens with 15 samples.

Results

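The genes that carry the bone morphogenetic protein (BMP) signal inside the cell were examined, with the ID genes that are its best known targets. The cells were 2 lines from ovarian tumours, in which FOXL2 was silenced or overexpressed. The set holds 10 of the 19775 genes measured, namely ID1, ID2, ID3, ID4, SMAD1, SMAD5, SMAD9, SMAD6, BAMBI and NOG. Its members are all probe sets of the array whose single gene symbol is one of these genes, which gave 25 of the 54613 probe sets tested. A further probe set that shares its symbol between ID2 and another gene was not used. The members differ in coverage, from a single probe set for ID1, ID3, BAMBI and NOG to 5 for ID4 and for SMAD5.

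RNA was measured on 15 Affymetrix U133 Plus 2 arrays, as 5 groups of 3. KGN, a line grown from an adult-type granulosa cell tumour and heterozygous for the FOXL2 402C>G mutation, received either a FOXL2 stealth RNAi product or a control siRNA of matched GC content at passage 8. COV434, a line that lacks the mutation and makes almost no FOXL2, received 1 of 3 plasmids at passage 9, namely an empty vector, wildtype FOXL2 (pFOXL2wt) or mutant FOXL2 (pFOXL2m). Every group started from 300000 cells, lost its transfection complex after 7 h and was harvested at 24 h, and the transfections of a group were made on the same occasion, so p-values measure only the spread between such transfections. A single siRNA product was used. COV434 was treated as a juvenile granulosa tumour model in the study and has since been reassigned by others to small cell carcinoma of the ovary of hypercalcaemic type.

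BMP ligands bind pairs of type I and type II receptor kinases, which phosphorylate the receptor SMADs encoded by SMAD1, SMAD5 and SMAD9. These join SMAD4, enter the nucleus and switch on targets, among them the ID genes, whose proteins have a helix-loop-helix but no DNA-binding region and hold E proteins away from DNA. The pathway is restrained at several levels: NOG encodes noggin, a secreted protein that traps BMP ligands, BAMBI encodes a decoy receptor with no kinase, and SMAD6 encodes an inhibitory SMAD that is itself a target of the pathway. In the ovary, BMPs from the oocyte, theca and granulosa cells act on granulosa cells and modulate their response to gonadotrophins.

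Promoters are shown for the 4 members on which the results turn, as the 250 bases before the start site in RefSeq (GRCh38.p14): ID3 at chr1:23559502-23559751 (minus strand), SMAD5 at chr5:136132595-136132844 (plus strand), SMAD6 at chr15:66701986-66702235 (plus strand) and BAMBI at chr10:28677271-28677520 (plus strand). They are written 5′ to 3′ along the gene, and capitals mark the searched letters on either strand. These were GTCT or its reverse AGAC (a SMAD box), GTCTAGAC (a SMAD box followed by its reverse, which is also counted as a SMAD box), GGCGCC (a GC-rich SMAD site), and TGTTTNC or its reverse GNAAACA (the core that forkhead factors such as FOXL2 bind).
ID3: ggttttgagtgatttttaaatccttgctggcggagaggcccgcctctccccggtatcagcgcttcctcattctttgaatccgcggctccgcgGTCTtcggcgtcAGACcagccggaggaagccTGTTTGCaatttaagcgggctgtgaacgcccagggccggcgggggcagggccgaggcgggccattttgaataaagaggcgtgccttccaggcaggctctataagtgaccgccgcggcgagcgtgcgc
SMAD5: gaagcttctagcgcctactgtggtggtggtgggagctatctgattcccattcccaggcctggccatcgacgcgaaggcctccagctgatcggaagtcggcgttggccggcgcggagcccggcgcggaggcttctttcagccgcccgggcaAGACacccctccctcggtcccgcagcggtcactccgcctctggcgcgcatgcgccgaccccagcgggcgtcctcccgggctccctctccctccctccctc
SMAD6: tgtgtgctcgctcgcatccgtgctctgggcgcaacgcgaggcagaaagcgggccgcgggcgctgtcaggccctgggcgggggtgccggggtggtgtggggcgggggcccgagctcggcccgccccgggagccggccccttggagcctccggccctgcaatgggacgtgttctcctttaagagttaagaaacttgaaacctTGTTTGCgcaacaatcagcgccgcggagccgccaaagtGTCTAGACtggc
BAMBI: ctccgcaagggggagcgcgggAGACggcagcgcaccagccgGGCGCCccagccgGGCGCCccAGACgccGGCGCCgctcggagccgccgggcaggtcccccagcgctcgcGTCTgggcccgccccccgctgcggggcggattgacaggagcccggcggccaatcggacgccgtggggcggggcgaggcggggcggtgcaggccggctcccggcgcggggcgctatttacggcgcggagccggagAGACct

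SMAD6 holds GTCTAGAC 12 bases before its start site, letters found in 0.182% of the 35116 promoters of this length (64 of them) and in no other member. ID3 and SMAD6 each hold 1 forkhead core, present in 15.5% of all promoters. BAMBI holds GGCGCC 3 times, where 16.4% of all promoters hold it 1 or more times. Of the 13 member promoters 3 hold GGCGCC, the others being those of SMAD1. A SMAD box stands in 77.5% of all promoters and in 11 of the 13 promoters of the members (9 genes matched, SMAD1 with 5 start sites, and NOG unmatched), so its presence does not set them apart. The searched letters were chosen after the promoters were read, so the rarity of GTCTAGAC cannot be taken as a result about SMAD6. These are matches of letters, and binding was not measured.

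Before the results, some facts about the arrays bear on them. The FOXL2 signal fell from 8.07 ± 0.15 (log2, SD, n = 3) with control siRNA to 6.30 ± 0.05 with FOXL2 siRNA in KGN, a difference of -1.77 (adjusted p = 0.000556, limma), and it was 2.57 to 2.87 on average in the COV434 groups, where the probe set lies outside the sequence of the plasmids and checks nothing. Signals count as above background over 5.28 in KGN and 5.05 in COV434, the 95th percentile of 143 probe sets for genes of smell receptors and hair keratin-associated proteins, which these cells should not use. Of 13 granulosa markers, KGN showed 8 above background but not AMHR2, FSHR, INHA, NR5A1 or NR5A2, and COV434 showed only FST, GATA4, INHBA, NR5A2 and WT1. Of the markers of other cell types, 0 of 4 for leukocytes, 2 of 5 for endothelium, 4 of 6 for theca and stroma and 3 of 6 for epithelium were above background in KGN, against 1, 2, 4 and 1 in COV434. The empty vector array RR1016 stood apart from the rest: its ACTB signal was 7.81 higher at the 3′ than at the 5′ control probe set (1.51 to 2.58 on the other 14 arrays) and its GAPDH signal 4.67 higher (0.10 to 1.08). Results of the FOXL2 plasmids against empty vector are therefore given with and without RR1016. The comparison of the lines includes RR1016 unless stated.

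Of the 25 member probe sets, 19 were above background in each line and 6 in neither: ID4 at 229386_at, SMAD1 at 208015_at, SMAD5 at 205187_at, SMAD6 at 209886_s_at and 209887_at, and SMAD9 at 206320_s_at. The brightest probe set of a gene, by its mean over the 15 arrays, stands for the gene, and every such representative probe set was above background in both lines. Levels of different genes rest on different probes and are not compared.

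**Figure D1:**
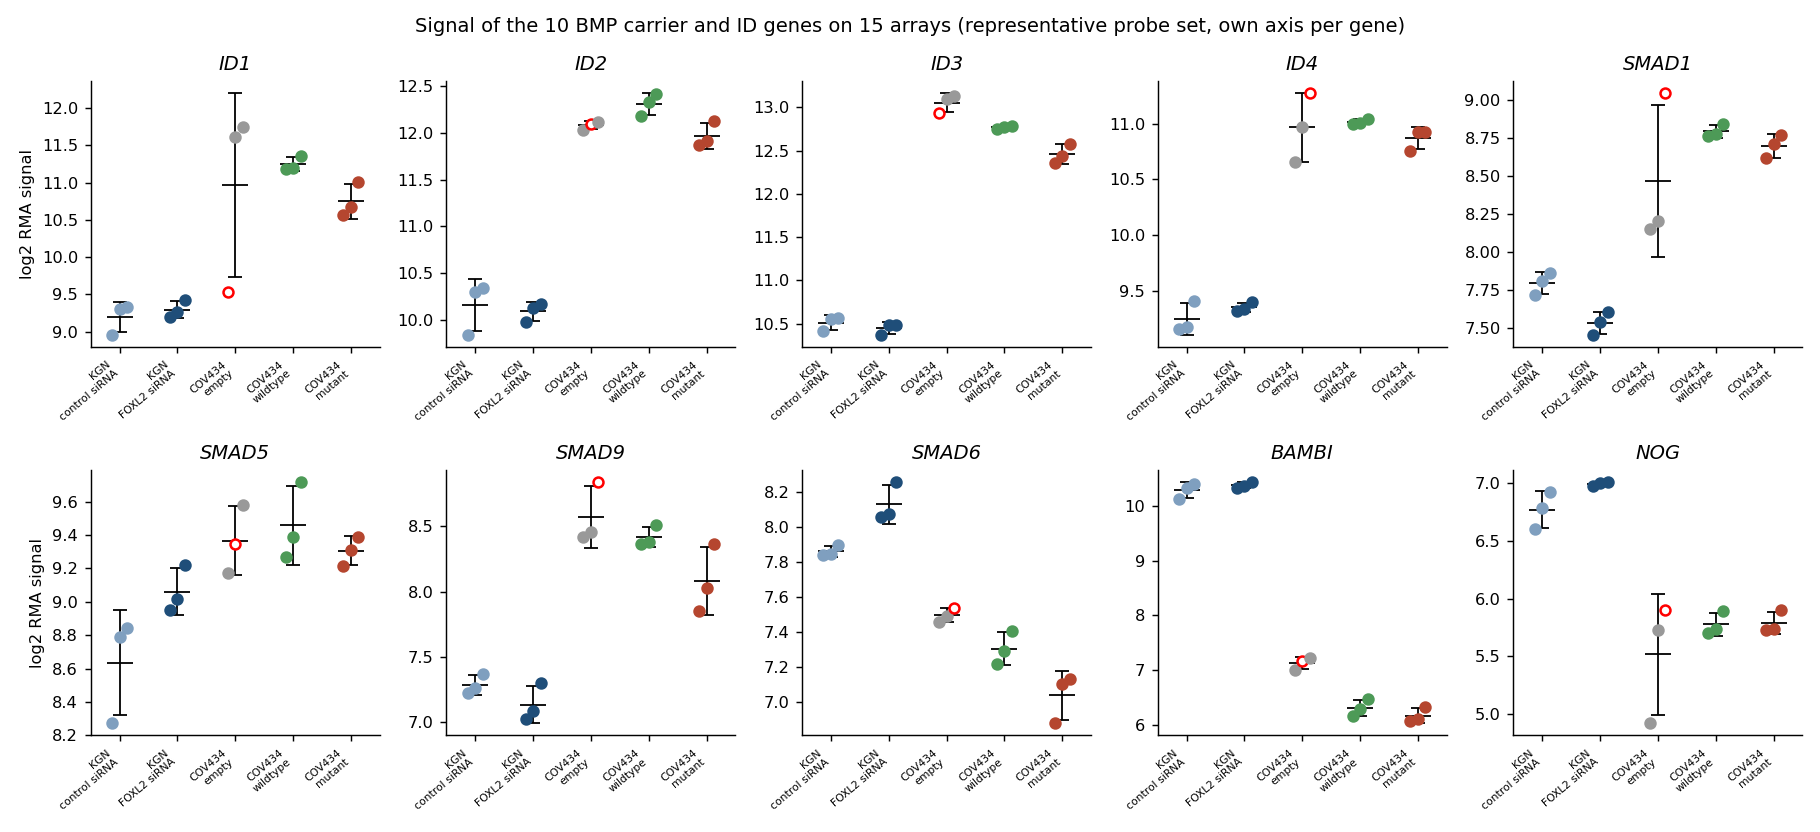
Log2 RMA signal of the representative probe set of each of the 10 genes on all 15 arrays, with points for arrays, bars for the group mean and SD (n = 3), the empty vector array RR1016 as an open red point, and an axis of its own for each gene. The 4 ID genes sit higher in all COV434 groups than in KGN, BAMBI sits higher in KGN, and RR1016 lies far below the other empty vector arrays for ID1.

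Silencing FOXL2 in KGN raised SMAD5, a receptor SMAD, at a single probe set, and no other member passed the test. That probe set, 225223_at, read 7.54, 7.53 and 7.48 (log2) with control siRNA and 8.14, 8.22 and 8.21 with FOXL2 siRNA. The groups did not overlap, and the difference was 0.67 (SE 0.08, adjusted p = 0.0121, limma), a 1.60-fold rise. It was the only one of the 25 member probe sets to pass, against 0.273% of all probe sets. In bulk RNA, a change in the number of cells that express a gene and a change in its RNA per cell cannot be told apart.

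All 5 SMAD5 probe sets were higher on average after silencing, the others by 0.28 to 0.44. The representative one, 225219_at, read 8.84, 8.27 and 8.79 with control siRNA and 9.01, 9.22 and 8.95 with FOXL2 siRNA, a difference of 0.43 (SE 0.15, adjusted p = 0.576). At 235451_at the signals went from 7.93, 7.89 and 7.77 to 8.27, 8.39 and 8.26, a difference of 0.44 (SE 0.09, adjusted p = 0.135). The 3 brightest SMAD5 probe sets thus separated the groups, 205188_s_at overlapped between them, and 205187_at was below background. The call at 225223_at was lost (adjusted p of 0.0567 to 0.0935) when any array other than the control RR1006 was left out, and in a fit over all 15 arrays (0.317), although the difference itself stayed between 0.66 and 0.70.

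SMAD1, which shares its receptors with SMAD5, was lower after silencing at both probe sets above background. At 227798_at the control arrays read 7.72, 7.86 and 7.81 and the knockdown arrays 7.60, 7.45 and 7.53, and the difference was -0.26 (SE 0.09, adjusted p = 0.510, limma). At 210993_s_at the signals were 7.84, 7.54 and 7.64 against 7.20, 7.41 and 7.25, a difference of -0.39 (SE 0.11, adjusted p = 0.365). Neither pair of groups overlapped, and neither difference passed the test. SMAD9, the remaining receptor SMAD, differed by -0.15 (SE 0.10) with overlapping groups.

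**Figure D2:**
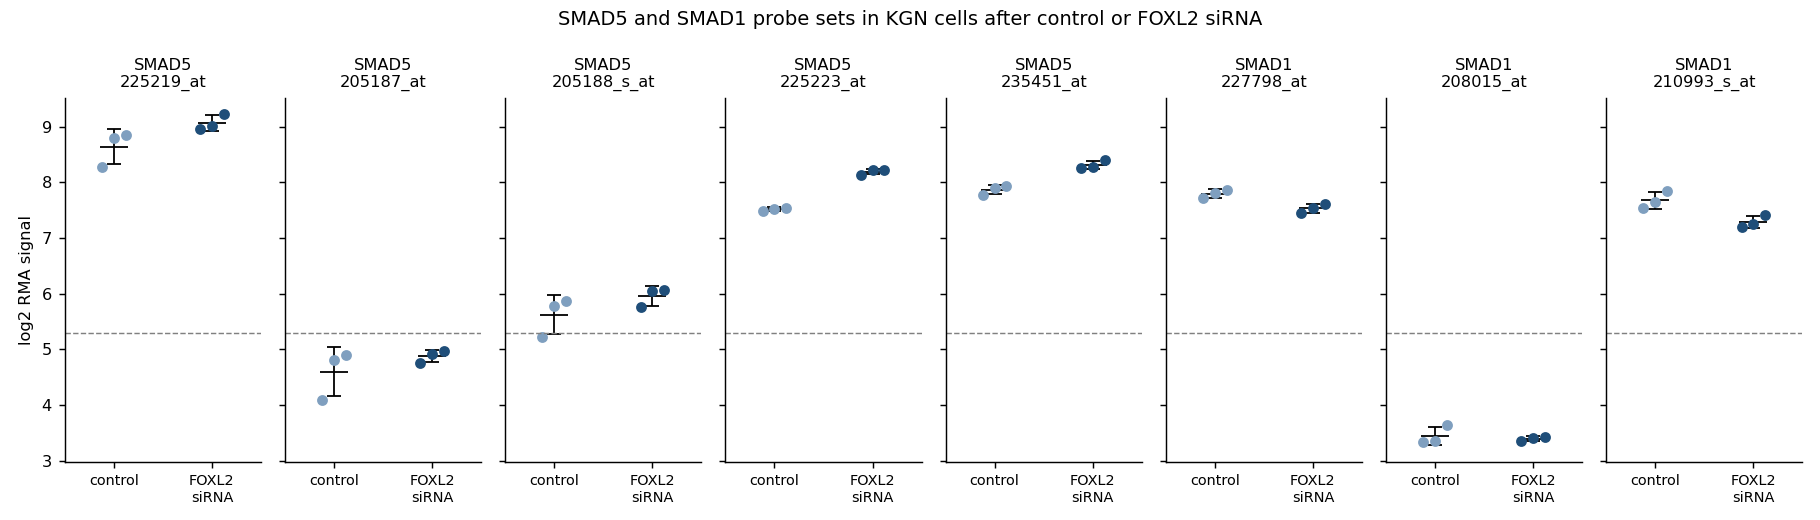
Log2 RMA signal of the 5 SMAD5 and 3 SMAD1 probe sets on the 6 KGN arrays, with points for arrays, bars for the mean and SD (n = 3) and a dashed line at the KGN background level of 5.28. SMAD5 was higher with FOXL2 siRNA at every probe set on average, by 0.67 at 225223_at, while the SMAD1 probe sets above the line differed by -0.26 and -0.39.

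Among the inhibitors, SMAD6 read 7.85, 7.90 and 7.84 with control siRNA and 8.06, 8.08 and 8.26 with FOXL2 siRNA. The groups were apart, but the difference of 0.27 (SE 0.09, adjusted p = 0.510, limma) did not pass. At 213565_s_at, the other SMAD6 probe set above background, the means were 5.58 ± 0.17 and 5.58 ± 0.11 (SD, n = 3). The groups overlapped there. NOG went from 6.61, 6.79 and 6.93 to 7.00, 6.98 and 7.01, a difference of 0.23 (SE 0.10, adjusted p = 0.664, limma). BAMBI differed by 0.09 (SE 0.10), within the spread of the arrays. The ID genes differed by 0.10 (ID1), -0.07 (ID2), -0.06 (ID3) and 0.10 (ID4), each with overlapping groups, and the 95% confidence intervals reach no further than -0.38 and 0.36 (ID2 and ID1).

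Over the members, 7 probe sets had an unadjusted p under 0.05 in the knockdown, 5 higher (3 of SMAD5, SMAD6 and NOG) and 2 lower (SMAD1), where 7.5% of all probe sets did. In 8 probe sets the groups did not overlap, against 13.8% of all probe sets, and ID2 at 201566_x_at (-0.21) was the one not yet named. The median difference over the 25 was 0.09, against 0.01 over all probe sets.

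In COV434, BAMBI was the member furthest below empty vector with either plasmid. It read 7.16, 7.22 and 7.00 with empty vector, 6.17, 6.28 and 6.47 with wildtype FOXL2 and 6.07, 6.32 and 6.11 with mutant FOXL2. Every array with either form of FOXL2 lay below every empty vector array. The difference was -0.96 (SE 0.12, a 1.95-fold lower signal, adjusted p = 0.090, limma) for mutant and -0.82 (SE 0.12, 1.76-fold, adjusted p = 0.235) for wildtype FOXL2, and neither passed with all 9 arrays. Both comparisons rest on the same 3 empty vector arrays and are not independent.

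With all 9 arrays no member passed in either comparison, and neither did any other probe set (0% of 54613 for the mutant form, and 0% for the wildtype form). At an unadjusted p under 0.05, 6 of the 25 member probe sets differed for mutant FOXL2, all of them lower. Of all probe sets 13% did, and these also leaned lower (4478 lower and 2617 higher). The members were BAMBI, ID3, SMAD9, 2 probe sets of SMAD6 and SMAD1 at 210993_s_at. They were also the 6 whose groups did not overlap (14.5% of all probe sets, 5101 lower and 2800 higher). For wildtype FOXL2 4 members were under 0.05, again all lower (BAMBI, ID3, SMAD6 at 213565_s_at and SMAD1 at 210993_s_at). Of all probe sets 11.1% were (4075 lower and 1967 higher). Groups did not overlap for 6 members, of which ID2 alone was higher, against 13.4% of all probe sets (5056 lower and 2284 higher).

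ID3 was the ID gene with the clearest separation from empty vector. Its signals were 12.93, 13.10 and 13.14 with empty vector, 12.77, 12.75 and 12.78 with wildtype FOXL2 and 12.36, 12.58 and 12.44 with mutant FOXL2. The 3 groups stood in that order with no overlap. The difference was -0.59 (SE 0.10, adjusted p = 0.128, limma) for mutant and -0.29 (SE 0.10, adjusted p = 0.369) for wildtype FOXL2.

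SMAD6 followed the same order, from 7.54, 7.49 and 7.46 with empty vector to 7.22, 7.29 and 7.41 with wildtype and 7.10, 6.88 and 7.13 with mutant FOXL2. Its differences from empty vector were -0.46 (SE 0.10, adjusted p = 0.163, limma) and -0.19 (SE 0.10) for mutant and wildtype FOXL2. A dimmer SMAD6 probe set, 213565_s_at, was near background and read 5.10, 5.52 and 5.36 with empty vector, 5.06, 5.01 and 4.96 with wildtype and 5.01, 4.81 and 5.01 with mutant FOXL2, so both forms were lower there (-0.32 and -0.38). The other 2 SMAD6 probe sets were below background in both lines.

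SMAD9 read 8.84, 8.45 and 8.42 with empty vector, 8.38, 8.37 and 8.51 with wildtype and 8.03, 7.85 and 8.37 with mutant FOXL2, with differences of -0.49 (SE 0.15, adjusted p = 0.263, limma) for mutant and -0.15 (SE 0.15) for wildtype. NOG lay close to background, at 5.90, 4.92 and 5.73 with empty vector and 5.70 to 5.90 with either form of FOXL2, and its groups overlapped.

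RR1016 decided much of what the remaining members showed. Its ID1 signal was 9.54 where the other empty vector arrays read 11.74 and 11.61, its SMAD1 signal at 227798_at was 9.05 against 8.21 and 8.15, and its SMAD5 signal at 225223_at was 8.89 against 7.81 and 8.05. For BAMBI, SMAD6 and ID3 it differed from the mean of the other arrays by 0.05, 0.06 and -0.19, so the sizes of their differences moved little without it, although the calls of BAMBI and ID3 depended on it. Without RR1016, mutant FOXL2 against empty vector gave 2.99% of all probe sets called, and 6 of the 25 member probe sets.

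Of these, 4 were lower: BAMBI by -0.94 (adjusted p = 0.0261, limma), ID1 by -0.93 (0.0271), ID3 by -0.66 (0.0263) and SMAD6 at 213565_s_at by -0.49 (0.0393). The representative SMAD6 probe set differed by -0.44 with an adjusted p of 0.0555. The other 2 were higher, SMAD1 at 227798_at by 0.52 (adjusted p = 0.0301) and SMAD5 at 225223_at by 0.62 (0.0343). For wildtype FOXL2 2.3% of all probe sets were called and 4 of the members: BAMBI fell by 0.80 (0.0271), while SMAD1 at 227798_at rose by 0.62 (0.0223), SMAD5 at 225223_at by 0.69 (0.0298) and ID4 at 209292_at by 0.60 (0.0353).

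Other probe sets of the same genes did not pass in these comparisons, and they did not move alike. Without RR1016, SMAD1 at 210993_s_at differed by -0.28 (mutant) and -0.26 (wildtype), below empty vector on every array. SMAD5 at the brighter 225219_at differed by -0.07 and 0.08, whereas at 235451_at it was higher with either form, at 8.08 to 8.18 against 7.99 and 7.98, a difference of 0.13 for both (adjusted p = 0.349 and 0.366, limma). ID4 at 209291_at read 11.00, 11.01 and 11.04 with wildtype FOXL2, above the 10.97 and 10.66 of the empty vector arrays other than RR1016, a difference of 0.20 (adjusted p = 0.311), while ID4 at 226933_s_at differed by -0.18. The part of RNA quality in the values of RR1016 was not tested.

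**Figure D3:**
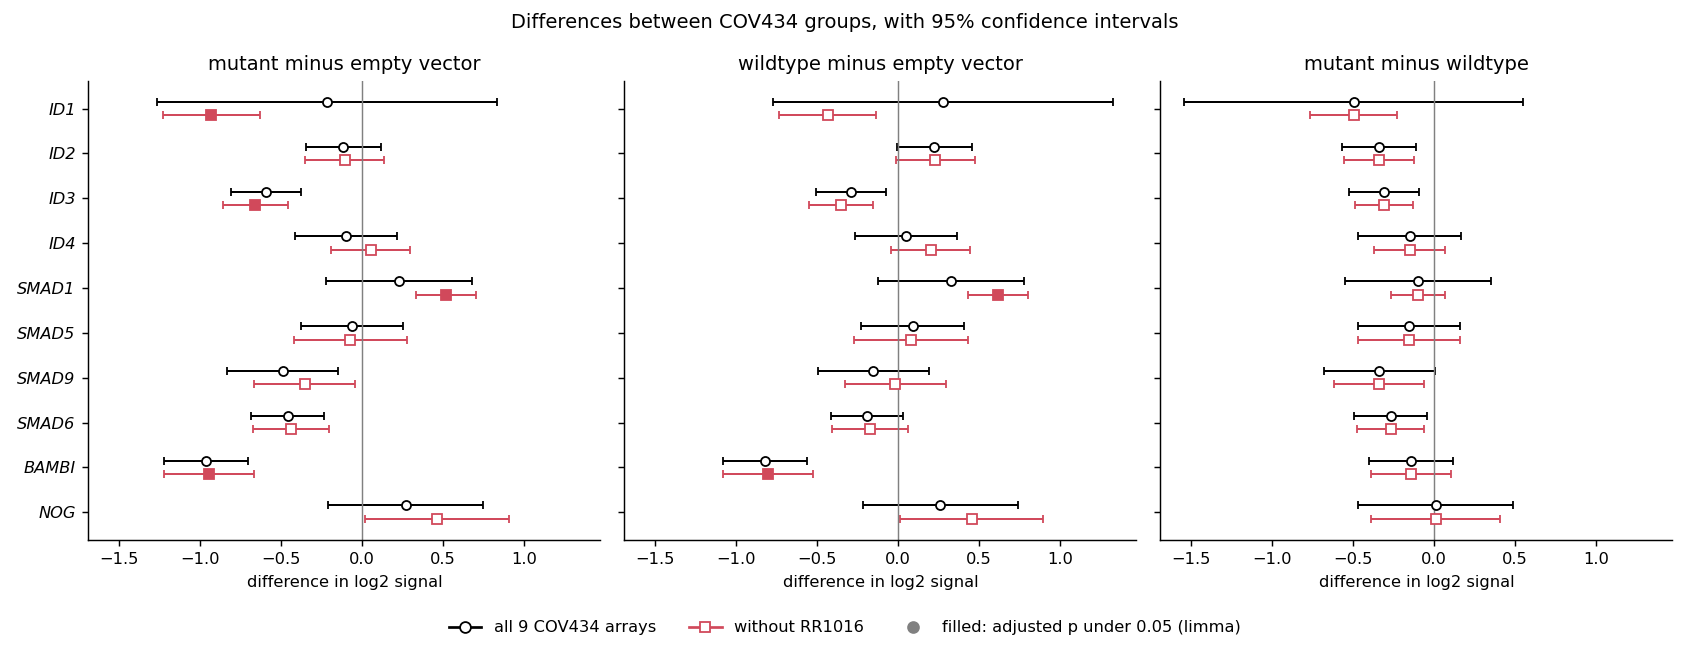
Differences in log2 signal between COV434 groups for the representative probe set of each gene, with 95% confidence intervals from limma, for all 9 arrays (black circles) and without RR1016 (red squares), filled where the adjusted p was under 0.05. Without RR1016 the ID1 difference for mutant FOXL2 moved from -0.22 to -0.93 and its interval became narrower, BAMBI and ID3 moved by under 0.1, and no gene passed for mutant minus wildtype.

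Mutant and wildtype FOXL2 were compared directly, a contrast that does not use the empty vector arrays other than for the spread. All 4 ID genes were lower with the mutant at their representative probe sets, each with no overlap between groups. ID1 read 11.35, 11.20 and 11.18 with wildtype and 10.67, 11.01 and 10.57 with mutant FOXL2, a difference of -0.50 (SE 0.47). ID2 read 12.33, 12.42 and 12.18 against 11.91, 12.13 and 11.87, a difference of -0.34 (SE 0.10), and ID3 differed by -0.31 (SE 0.10).

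ID4 read 11.00, 11.01 and 11.04 with wildtype and 10.93, 10.75 and 10.93 with mutant FOXL2, a difference of -0.15 (SE 0.14). SMAD6 differed by -0.27 (SE 0.10), SMAD9 by -0.34 (SE 0.15), SMAD5 by -0.15, BAMBI by -0.14, SMAD1 by -0.10 and NOG by 0.01. Thus 9 of the 10 genes had the lower mean with mutant FOXL2. Over all 25 probe sets, 18 were lower (72%, against 48.6% of all probe sets) with a median of -0.14, against 0.00 over all probe sets.

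None of these differences passed: limma called 0 of 25 member probe sets and 0% of all probe sets, with adjusted p = 1 for each member, and the same held without RR1016 (0%). At an unadjusted p under 0.05 there were 3 members, ID2, ID3 and SMAD6, against 1.11% of all probe sets. Groups did not overlap in 8 of the 25, all lower with the mutant, against 8.03% of all probe sets in either direction. Besides the 4 ID genes and SMAD6 these were 2 further ID4 probe sets and a SMAD9 probe set below background. An exact permutation test of a single probe set cannot go below p = 0.1 with 3 arrays against 3. The large SE of ID1 comes with RR1016, since all groups share 1 estimate of the spread. Without that array its SE was 0.12 and its unadjusted p was under 0.05 too, as for SMAD9 and 1 further ID4 probe set. That made 6 of the 25 members under 0.05 without RR1016, all lower. Of all 54613 probe sets, 756 were then lower and 828 higher at that threshold. ID1, ID2, ID3 and SMAD6 are among the genes that the study listed, from these same arrays, as regulated by mutant FOXL2, so their direction here is not independent evidence. The paper used limma to rank genes for its list and names no adjustment of p, so its threshold is unlike the one here.

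The effect of silencing FOXL2 in KGN was then set against that of adding mutant FOXL2 to COV434. These manipulations of different lines are not exact opposites. The paper holds it likely that the siRNA lowered both the wildtype and the mutant allele in KGN, whereas the plasmid added only the mutant form. The effects differed for 2 of the 25 members, against 0.227% of all probe sets. For BAMBI the effects were 0.09 and -0.96, a difference of 1.05 (SE 0.16, adjusted p = 0.0126, limma), and for SMAD6 they were 0.27 and -0.46, a difference of 0.73 (SE 0.13, adjusted p = 0.0371). The KGN groups of BAMBI overlapped. In COV434 its mean went from 7.13 with empty vector to 6.17 with mutant FOXL2, and to 6.31 with wildtype FOXL2. SMAD6 was higher on every KGN array with less FOXL2 than on any control array and lower on every COV434 array with mutant FOXL2 than on any empty vector array. Its call was lost (adjusted p of 0.0614 to 0.117) when any KGN, wildtype or mutant array was left out, whereas that of BAMBI was lost only without the mutant array RR1017 (0.0517). Without RR1016, ID1, ID3 and SMAD1 at 227798_at passed as well, with differences of 1.02, 0.59 and -0.78. The calls over all probe sets then also rose, from 124 to 1275 of 54613. The line and the kind of manipulation cannot be told apart in this contrast.

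Between the control cells of the lines, all members but SMAD6 differed at their representative probe sets. The KGN controls received control siRNA and the COV434 controls an empty vector, at different passages. Line, kind of control and passage therefore cannot be told apart in this comparison. The paper names the type of control among possible partial reasons for differences in FOXL2 targets between the lines. The 6 control arrays were first brought to 1 distribution of signals by quantile normalization, and 44.1% of all probe sets were called, and 19 of the 25 members. KGN was lower than COV434 for all 4 ID genes, by -2.12 (ID1), -2.27 (ID2), -2.82 (ID3) and -2.04 (ID4) on the log2 scale, that is 4.12-fold to 7.05-fold. In ranks, ID3 stood above 96.3% of probe sets in KGN and above 99.6% in COV434. All ID probe sets were lower in KGN and passed, although with the deposited values ID4 at 229386_at, which is below background, differed by only -0.01 (adjusted p = 0.958, limma).

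The receptor SMADs were lower in KGN too, SMAD1 by -0.96 (SE 0.25, adjusted p = 0.0143, limma), SMAD5 by -1.04 (SE 0.18) and SMAD9 by -1.58 (SE 0.16). The inhibitors went the other way or did not differ. BAMBI read 10.40, 10.12 and 10.32 in KGN control cells, and was 2.83 (SE 0.13, 7.10-fold) higher than in COV434, rising from above 78.7% to above 95.7% of probe sets. NOG was 0.85 (SE 0.25, adjusted p = 0.0242) higher, and SMAD6 differed by 0.07 (95% confidence interval -0.21 to 0.34).

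Each line seems to have been normalised on its own, and the scaling sets part of these values. With the deposited values the median difference over all probe sets was 0.27 and 74.7% of the called probe sets were higher in KGN, against -0.07 and 43.1% after joint normalization. The members then gave 4 higher and 14 lower calls in place of 2 and 17, no representative probe set of a called gene changed direction, and SMAD6 became called (0.37, adjusted p = 0.0206, limma). Leaving out a KGN control array removed the call of SMAD1 (0.0573 without RR1003) and of NOG (0.0788 without RR1006 and 0.0897 without RR1009). Without RR1016, ID1 was -2.82, ID4 -1.89, SMAD9 -1.41, SMAD1 -0.64 and NOG 1.06. The calls were then 21 member probe sets and 27975 of all probe sets.

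**Figure D4:**
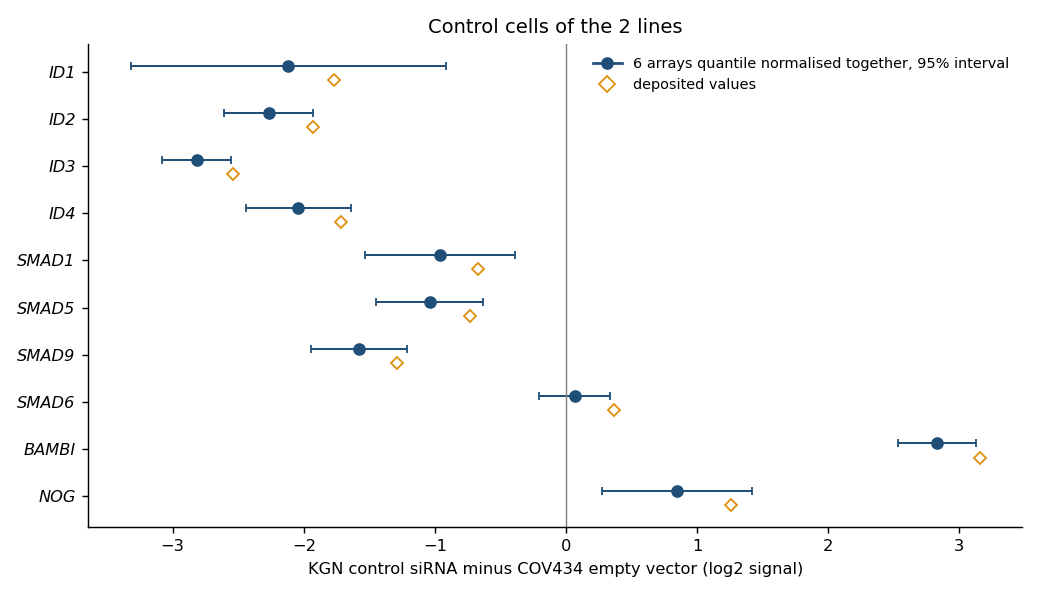
KGN control siRNA minus COV434 empty vector in log2 signal for each gene, after joint quantile normalization of the 6 control arrays (circles, 95% confidence interval from limma) and from the deposited values (diamonds). The ID genes and receptor SMADs lie to the left, BAMBI and NOG to the right, and SMAD6 has an interval that includes 0 after joint normalization.

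Across the 5 groups, each ID gene thus had its lowest levels in the KGN groups, which overlapped each other, and its highest in COV434. ID2 was highest with wildtype FOXL2 and ID3 with empty vector, and in both the mutant group lay below the wildtype group. For SMAD6 the order of group means ran from KGN with FOXL2 siRNA (8.13 ± 0.11, SD, n = 3) through KGN control siRNA (7.86 ± 0.03), empty vector (7.50 ± 0.04) and wildtype FOXL2 (7.30 ± 0.10) to mutant FOXL2 (7.04 ± 0.14), with no overlap between any neighbouring groups, although the step between the lines rests on separate normalization. BAMBI had the same line order, but its KGN groups overlapped and its wildtype and mutant groups overlapped.

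The rest of the BMP pathway was read from lists of ligands, receptors, secreted antagonists, intracellular regulators, further targets and E proteins, with 70 of 74 genes measured. Silencing FOXL2 in KGN changed 2 of them at their representative probe sets, both regulators inside the cell and both lower, where 53 of all 19775 genes were higher and 48 lower by the same test. SKI, a corepressor that binds SMADs, fell from 9.57 ± 0.04 to 8.67 ± 0.13 (SD, n = 3), a difference of -0.90 (SE 0.09, adjusted p = 0.00619, limma). CTDSP2, a phosphatase that removes phosphate from receptor SMADs, fell from 9.20 ± 0.05 to 8.45 ± 0.07, a difference of -0.74 (SE 0.08, adjusted p = 0.00979). With mutant FOXL2 in COV434 they differed from empty vector by 0.28 (SKI, adjusted p = 0.389) and 0.31 (CTDSP2, adjusted p = 0.259), and the difference between the manipulations passed for both (-1.17 for SKI and -1.05 for CTDSP2). None of the 13 ligands, 12 receptors, 12 antagonists, 13 further targets or 3 E proteins passed in KGN.

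In COV434 no gene of these lists passed with all arrays. Without RR1016, TOB2 and XIAP were higher and HEY2, a target gene of Notch and BMP signals, was lower with both mutant (0.69, 0.77 and -0.55) and wildtype FOXL2 (0.65, 0.97 and -0.64). MSX2 was higher with the mutant (0.69), and TOB1 with wildtype FOXL2 (0.42, adjusted p = 0.049, limma). By the same test without RR1016, 399 of all 19775 genes were higher and 317 lower with the mutant, and 347 and 209 with wildtype FOXL2. All these calls rest on the remaining empty vector arrays. Between the control cells, 7 of 12 antagonists were higher in KGN, where 4258 of all 19775 genes were higher and 5819 lower. FST was higher by 6.21, CHRDL1 by 5.27, BMPER by 4.94 and GREM1 by 2.96, and 2 antagonists were lower, with SOSTDC1 at -4.69. Of the 13 ligands 2 were called higher and 6 lower in KGN, of the 12 receptors 3 and 4, and of the 13 further targets 1 and 5. As single examples, the ligand BMP4 was 3.78 higher in KGN, the receptor BMPR1B differed by -5.01 and the target HEY1 by -7.48. These values between the lines include RR1016. Here too, line and kind of control cannot be told apart.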

How the data were processed

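RNA of 15 samples was measured on Affymetrix U133 Plus 2 arrays. Per the methods, the authors checked the scans with AffyQCReport and normalised them with RMA and background correction, and they deposited 1 log2 signal per probe set and array. Versions are not given in the sources used here. Equal values recur among arrays of a line and never between lines, which points to a separate normalization of each line.

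The 62 array controls were left out of 54675 probe sets. Genes were taken from the platform annotation, which can be old: 41091 probe sets have 1 symbol, 1801 several and 11721 none. Comparisons used lmFit and eBayes of limma 3.58.1 in R 4.3.3 on the log2 values, two-sided, with Benjamini-Hochberg adjustment over all 54613 probe sets and a threshold of 0.05. Fits used 6 arrays for KGN, 9 for COV434, 6 for the comparison of lines and 15 for the difference of effects. Arrays have no sequencing depth, and their number limits the precision.

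The 10 members are all named, other pathway genes where they passed in a comparison within a line (those of the line comparison are examples chosen after their values were seen), and for SMAD6 and ID1 the 3 genes most alike. The members and lists were chosen with earlier results of these data known, and the searched motifs after the promoters were read. The fits were tested on simulated data. Alternatives were quantile normalization, leaving out dim probe sets, eBayes with trend and robust settings, array weights, a fit over all 15 arrays, fits of only the groups compared, the mean over a gene's probe sets, deposited values for the lines, and leaving out each array.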

Additional observations from a re-analysis of the deposited data

Results flagged for a closer look

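The effects of FOXL2 silencing in KGN and of mutant FOXL2 in COV434 differed by the test of the difference itself for BAMBI, the decoy receptor, at 1.05 on the log2 scale (adjusted p = 0.0126, limma), and for SMAD6, the inhibitory SMAD, at 0.73 (adjusted p = 0.0371). In each case the value at the representative probe set was higher after silencing and lower with mutant FOXL2. For BAMBI the rise in KGN was only 0.09, with overlapping groups, and the signal was also lower with wildtype FOXL2. For SMAD6 at 213565_s_at, above background in KGN, the mean was 5.58 with either siRNA. The mean over all SMAD6 probe sets, which includes 2 below background, gave 0.23 (adjusted p = 0.457, limma).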

How the results depend on the processing

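No paired analysis was possible because the labels carry no replicate numbers. Of the recomputed differences of single genes, 869 kept their direction and side of the threshold, 26 lost a call, 13 gained one and 30 changed sign, and 50 recomputed counts of calls moved by over 1.5 times. In the knockdown, 1 member probe set and 149 probe sets passed; these were 2 and 266 without dim probe sets, 2 and 378 with trend and robust settings (235451_at of SMAD5 was the second), and 0 members in the fit over 15 arrays. Leaving out each array in turn gave 0 to 1 members and 46 (without RR1009) to 120 probe sets. For mutant FOXL2 against empty vector it gave 0 to 6 members and 0 to 1633 probe sets, and for wildtype 0 to 4 and 0 to 1257, the highest counts without RR1016. For the difference of effects 2 members and 124 probe sets passed, with 0 (without RR1017) to 5 members and 28 (without RR1017) to 1275 probe sets (without RR1016) when arrays were left out, 1 member after quantile normalization or with array weights (SMAD6 was lost, with adjusted p of 0.0803 and 0.0666), and 237 probe sets without dim ones. The line comparison gave 24074 probe sets, and 15624 without dim ones, of fewer tested. Other causes were not tested.

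Small differences changed sign. When arrays were left out, the knockdown difference ran from -0.021 to 0.16 for ID1 and from -0.23 to 0.020 for ID2. Mutant minus empty vector ran from -0.93 to 0.17 for ID1, -0.25 to 0.054 for ID4, -0.16 to 0.046 for SMAD5 and -0.028 to 0.46 for NOG. Wildtype minus empty vector ran from -0.43 to 0.67 for ID1, -0.10 to 0.20 for ID4, -0.039 to 0.20 for SMAD5 and -0.038 to 0.45 for NOG. Mutant minus wildtype ran from -0.046 to 0.067 for NOG. The difference of effects ran from -0.078 to 1.02 for ID1, -0.12 to 0.13 for ID2 and -0.24 to 0.25 for NOG.

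For mutant minus empty vector, quantile normalization gave 0.0074 for SMAD5, array weights 0.040 for ID4, and the mean of all probe sets -0.020 for SMAD1 and 0.038 for SMAD5. Array weights gave -0.15 for ID1 (wildtype minus empty vector) and -0.0065 for NOG (mutant minus wildtype). For the difference of effects of ID2, array weights gave -0.0040 and the mean of its probe sets -0.10.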

Other observations

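The genes whose pattern was most like that of SMAD6, by Pearson r over the 15 arrays after each line's mean was subtracted, were TMEM245 (r = 0.915), GNB5 (0.906) and KANK2 (0.888), out of 12758 genes above background in at least 1 line. Without RR1016 these values were 0.90, 0.891 and 0.896. For ID1 they were SNRNP40 (0.957), TLE3 (0.957) and CLSPN (0.954), and 0.876, 0.874 and 0.888 without RR1016. The arrays of a group share their treatment and the lines their normalization, and r is given as a description only.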
